A study of Homo sapiens with 16 samples.

Results

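The large subunit ribosomal protein genes were followed across total RNA and 3 polysome pools of the human multiple myeloma line MM1.S. The 45 listed genes encode proteins of the cytosolic large ribosomal subunit, and probes were assigned to them by the gene symbol of the array annotation, with pseudogene probes kept apart. Annotated probes were found for 43 of the 45, and RPL15 and RPLP0, which had none under these symbols, were not analysed here. RPL10 had 2 probes, both detected on 0 of 16 arrays, and was not tested. The other 42 genes were tested among 10163 genes, and each of the 42 was detected on all 16 arrays. Of 70 annotated probes of the 43 genes, those of RPL10 included, 67 passed the detection filter, and of 26 pseudogene probes 18 did.

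MM1.S is a glucocorticoid-sensitive line derived from malignant plasma cells, and dexamethasone is a synthetic glucocorticoid. All cultures were treated with 1 uM dexamethasone for 0 h or 4 h, and the 0 h cultures served as the untreated groups. Total RNA and fractionated polysome RNA in pools A, B and C were hybridised to Illumina bead arrays, with 2 arrays in each of 8 groups. The labels do not say which gradient fractions make up a pool. Nor do they say whether both arrays of a group came from separate cultures, so that p-values measure the spread between arrays, which may be technical. N and X, the prefixes of the data columns, name the arrays within a group.

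A ribosome consists of a small subunit, which reads the mRNA, and a large subunit, which holds the peptidyl transferase centre and the tunnel through which the new protein leaves. Most mRNAs for ribosomal proteins begin with a 5′ terminal oligopyrimidine (TOP) motif, a C followed by a run of pyrimidines, through which the kinase mTOR controls their loading onto polysomes. Their coding regions are short, so that few ribosomes fit on each of them. Plasma cells make large amounts of secreted protein and carry many ribosomes.

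The start sites are shown because the TOP motif is the sequence feature by which these mRNAs are regulated as a group. RefSeq start-site windows (GRCh38.p14) were matched by symbol for 38 of the 45 genes. A TOP start was counted where the annotated first base was a C that opened a run of at least 5 pyrimidines (C or T), read on the transcript's strand only. A gene with several annotated starts was counted if any of them met this, and for RPL13 and RPL34 the start that did is shown. It was present in 28 of the 38 genes (73.7%), in 19 of 25 small subunit genes (76.0%) and in 1404 of 27305 genes with a window (5.1%). The runs were between 5 and 19 bases long, with a median of 8. Pyrimidine runs of 8 or more that touched the 20 bases around an annotated start, without having to open there, were more common. They were found in 31 of the 38 genes (81.6%) and in 18.3% of all genes with a window. The sequences below hold 10 bases before the annotated start and 20 from it, 5′ to 3′, and capitals mark the pyrimidine run from the start.
RPL34, chr4:108620566-108620595, plus strand: cttttttcttCCTCTTCCggggacgttgtc
RPL13, chr16:89560672-89560701, plus strand: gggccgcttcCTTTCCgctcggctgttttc
RPL14, chr3:40457329-40457358, plus strand: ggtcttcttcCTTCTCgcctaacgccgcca
RPL22, chr1:6199576-6199605, minus strand: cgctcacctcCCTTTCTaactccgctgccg
RPL28, chr19:55385922-55385951, plus strand: cctcgccttcCTCTTTCCgtctcaggtcgc
RPL39, chrX:119791611-119791640, minus strand: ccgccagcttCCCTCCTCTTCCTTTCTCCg
RPL26, chr17:8383174-8383203, minus strand: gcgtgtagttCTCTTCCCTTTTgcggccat
RPL29, chr3:51995876-51995905, minus strand: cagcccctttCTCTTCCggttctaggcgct
RPL36A, chrX:101391001-101391030, plus strand: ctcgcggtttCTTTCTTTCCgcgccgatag
RPL41, chr12:56116623-56116652, plus strand: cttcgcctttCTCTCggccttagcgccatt
RPLP1, chr15:69452808-69452837, plus strand: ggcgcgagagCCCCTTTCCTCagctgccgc
RPL3, chr22:39319604-39319633, minus strand: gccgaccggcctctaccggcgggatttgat
The first 7 belong to genes that were lower in pool C than in pool A, RPL29 and RPL36A to genes that were highest in pool B, RPL41 and RPLP1 to genes whose probes differed, and RPL3 to a gene without the motif at this start that was higher in pool C.

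Intensities are given as log2 values after background correction and quantile normalization, so that every value is relative to the other probes of its array. Between 26.11% and 31.3% of probes were detected on an array. Replicate arrays correlated across genes with r between 0.9659 and 0.9906. Over the 42 genes the difference between the X and the N array had a standard deviation of 0.15 (treated total RNA) to 0.33 (untreated pool C). All 10 plasma cell markers were detected on all 16 arrays. Of 12 markers of other cell types with a probe, 10 were detected on no array, CD2 on 1 array and the globin gene HBB on all 16.

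The median level of the 42 genes was 14.17 and 14.18 on the untreated N and X arrays of total RNA, 14.08 and 14.17 in pool A, 14.10 and 14.11 in pool B, and 14.02 and 13.82 in pool C. At 4 h it was 14.15 and 14.19 in total RNA, 14.16 and 14.26 in pool A, 14.15 and 14.13 in pool B, and 13.86 and 13.88 in pool C. All 4 pool C arrays lay below the 12 others, the pool B arrays lay below those of total RNA, and pool A overlapped both. This median lies near the top of the scale, and the genes with lower levels differed more between pools. In bulk RNA such as this, a transcript present in fewer cells and one at a lower amount per cell cannot be told apart.

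The widest contrast was that of pool C with pool A. In untreated cells 14 of the 42 genes were lower in pool C and 1 was higher (limma, adjusted p under 0.05), where 21.4% of all genes tested were lower and 34.2% higher. The median difference was -0.17 log2 units over the 42 genes and 0.26 over all genes. RPL23A, which sits at the exit of the peptide tunnel and contacts the signal recognition particle, had the largest difference. Its level was 12.58 and 12.83 on the N and X arrays of untreated pool A, 11.62 and 11.51 in pool B, 10.38 and 9.99 in pool C, and 10.92 and 11.10 in total RNA. No pool overlapped another, and pool C lay 2.51 ± 0.20 log2 units below pool A (SE, n = 2 arrays per group, 5.71-fold lower, adjusted p = 4.60e-07).

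RPL37, a small zinc-binding protein of the subunit, stood at 8.62 and 8.09 in pool A, 7.75 and 8.07 in pool B, 6.46 and 6.40 in pool C and 7.06 and 6.82 in total RNA. Its pool C arrays were the lowest of the untreated arrays, and the difference from pool A was -1.93 ± 0.23 (3.81-fold lower, adjusted p = 1.60e-05). RPL34 was at 12.51 and 12.42 in pool A and at 12.40 and 12.41 in pool B, close to each other. In pool C it was at 11.24 and 10.34, which was 1.68 ± 0.32 below pool A (adjusted p = 0.000664) and 1.62 ± 0.32 below pool B (adjusted p = 0.00129). The 2 pool C arrays of RPL34 were 0.90 apart, with X the lower.

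**Figure D1:**
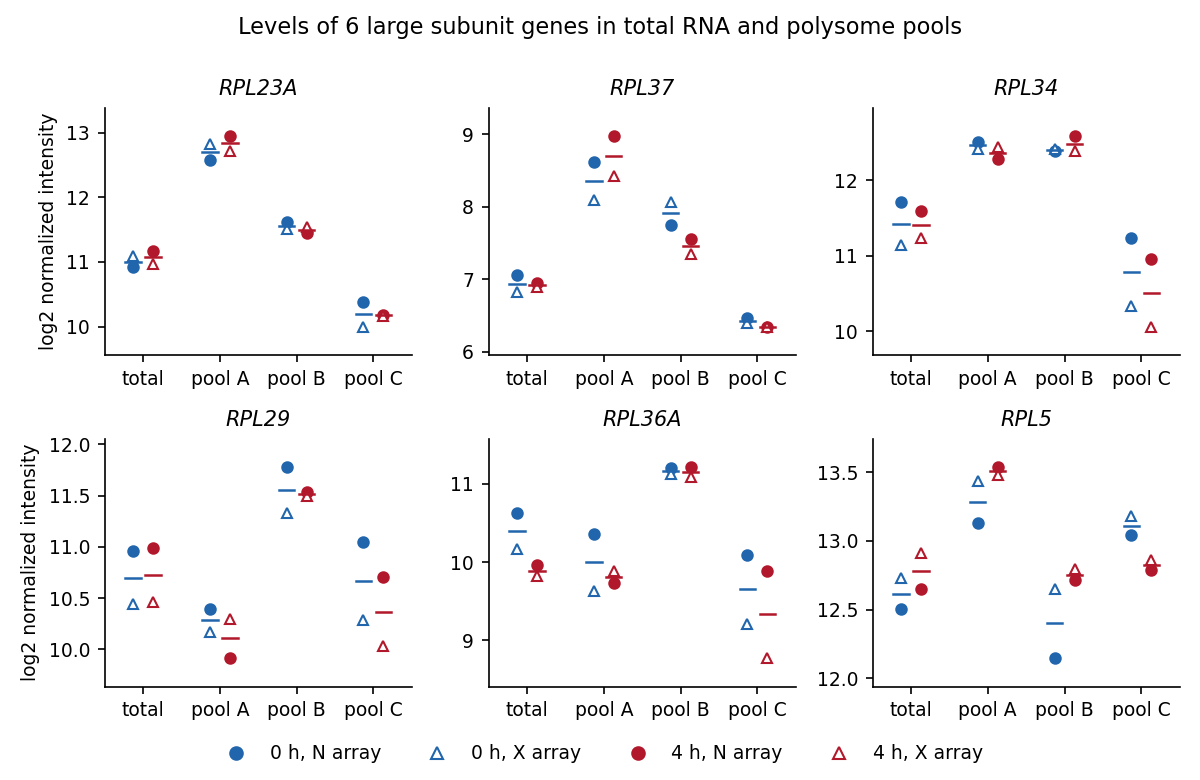
Levels of RPL23A, RPL37, RPL34, RPL29, RPL36A and RPL5 (log2 normalized intensity, axis not starting at 0) in pools A, B and C and total RNA at 0 h (blue) and 4 h (red). Circles are N arrays, triangles X arrays and bars the mean of the 2. RPL23A fell from 12.58 and 12.83 in untreated pool A to 10.38 and 9.99 in pool C, whereas RPL29 and RPL36A were highest in pool B and RPL5 was lower in pool B than in pool A.

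RPL13 and RPL14 were also higher in pool A than in pool C. RPL13 was at 11.64 and 11.91 in untreated pool A and at 10.43 and 9.87 in pool C (-1.62 ± 0.25, adjusted p = 0.000118). RPL14 was at 11.90 and 12.76 in pool A and at 11.51 and 10.51 in pool C, a pair of groups that did not overlap but had the widest spread between arrays (-1.32 ± 0.33, adjusted p = 0.0044). RPL7 differed by -1.47 ± 0.21 (adjusted p = 6.29e-05). RPL22, which can also bind viral and cellular stem-loop RNAs, differed by -1.31 ± 0.20 (adjusted p = 8.66e-05), RPL30 by -1.30 ± 0.24 (adjusted p = 0.000482) and RPL28 by -1.23 ± 0.24 (adjusted p = 0.000683). RPL39, a short protein in the wall of the peptide tunnel, was at 14.45 and 14.35 in pool A and at 13.55 and 12.98 in pool C (-1.14 ± 0.20, adjusted p = 0.000339). The remaining 4 lower genes were RPL23, RPL36, RPL13A and RPL26, with differences between -0.76 and -0.60 and adjusted p-values between 0.0114 and 0.0267.

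RPL3, which reaches into the peptidyl transferase centre, was the 1 gene higher in pool C. Its levels were 13.65 and 13.97 in pool A and 14.31 and 14.40 in pool C (0.54 ± 0.20, adjusted p = 0.0313).

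**Figure D2:**
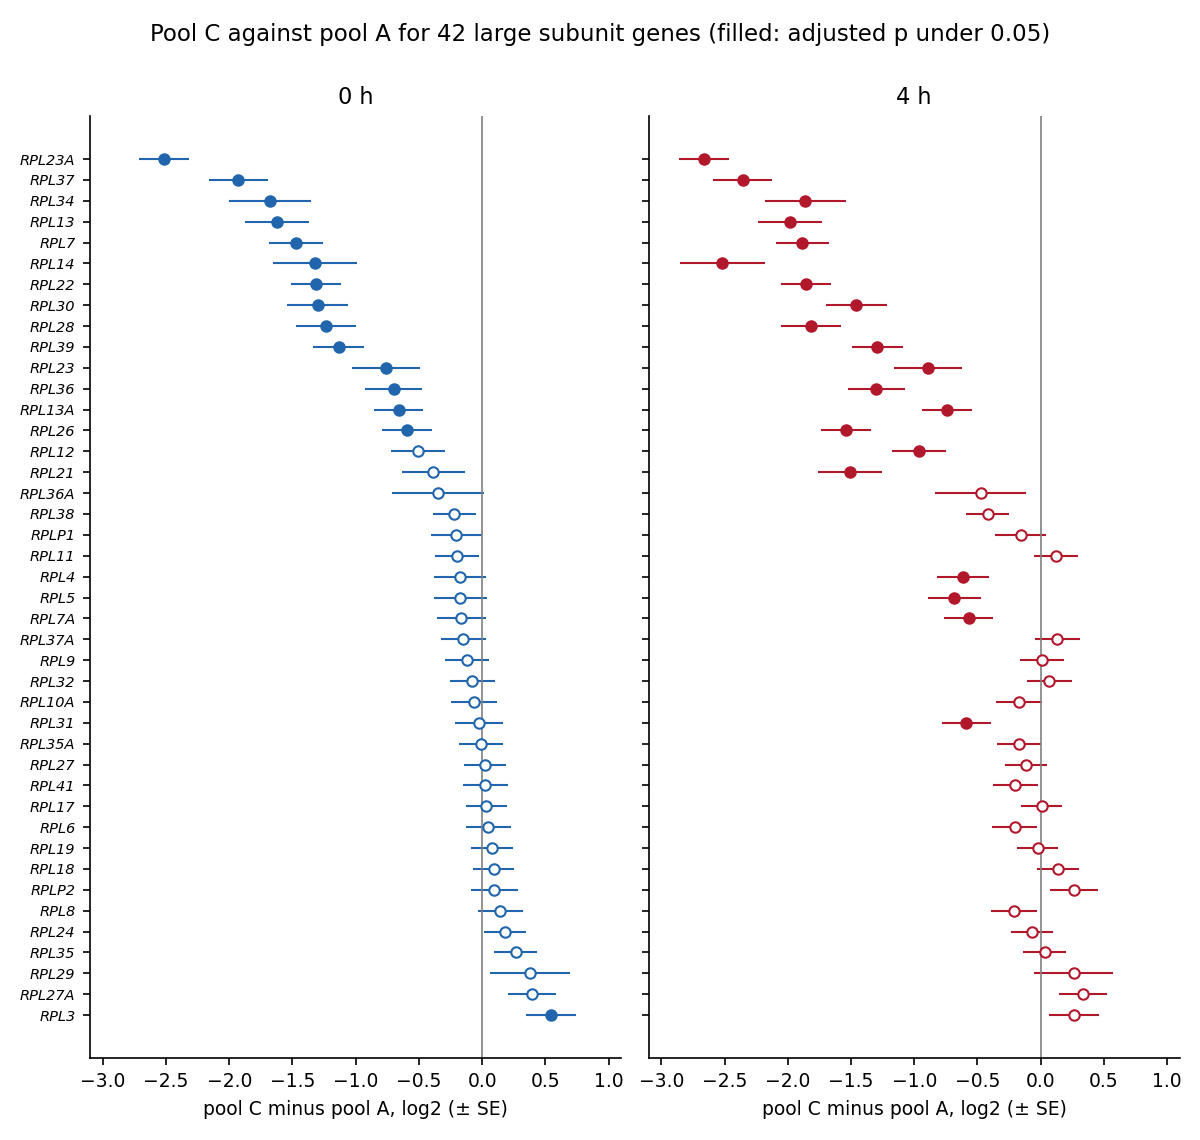
Difference between pool C and pool A (log2, with its standard error) for each of the 42 genes at 0 h (left) and 4 h (right), ordered by the value at 0 h, with filled points where the adjusted p was under 0.05. At 0 h 14 genes were lower and 1 higher, and at 4 h 20 were lower, with RPL23A lowest at both times (-2.51 and -2.67).

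Among the markers of other cell types only HBB passed the detection filter. It was at 9.85 and 9.37 in untreated pool A, 9.31 and 8.82 in pool B, 7.80 and 6.35 in pool C and 8.42 and 7.56 in total RNA, and was lower in pool C than in pool A by 2.53 ± 0.47 (adjusted p = 0.00045). Of the 10 plasma cell markers 7 were higher in pool C than in pool A and 1 was lower, where 34.2% of all genes tested were higher and 21.4% lower. The part of other cells or of RNA carried between samples in the ribosomal protein values was not tested.

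Without the untreated X array of pool C, 9 genes were lower and 0 higher, and RPL14, RPL13A, RPL23, RPL26, RPL36 and RPL3 no longer passed; without the 4 untreated X arrays, an alternative chosen after the data were seen, 8 were lower. With median scaling, which moved the median of all genes from 0.26 to 1.16 and that of the 42 genes from -0.17 to -0.31, 10 genes were lower and 2 higher, and RPL3, RPL34, RPL13, RPL7, RPL14, RPL22 and RPL28 no longer passed, the last 6 with values between -0.61 and -0.22. Of the calls among all genes, 87.7% were then in the direction of pool C, against 61.5%.

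After 4 h of dexamethasone 20 of the 42 genes were lower in pool C than in pool A and 0 were higher, against 23% and 33.3% of all genes tested. The median was -0.45 over the 42 genes and 0.20 over all genes. RPL23A was again lowest (-2.67 ± 0.20, 6.34-fold lower, adjusted p = 3.01e-07), at 12.95 and 12.72 in pool A and 10.18 and 10.16 in pool C. RPL14 followed with 13.08 and 12.89 against 10.58 and 10.36 (-2.52 ± 0.33, adjusted p = 3.26e-05). The 6 genes lower at 4 h that had not passed at 0 h were RPL21, RPL12, RPL5, RPL4, RPL31 and RPL7A. RPL21 was at 14.25 and 13.91 in pool A and at 12.62 and 12.53 in pool C (-1.51 ± 0.25, adjusted p = 0.000212), and RPL12, at the base of the stalk, differed by -0.97 ± 0.21 (adjusted p = 0.00178). The other 4 differed by between -0.68 and -0.57. The change from 0 h to 4 h was itself tested, and 0 of the 42 genes passed, so that the longer list at 4 h is not shown to be a response to the drug. Without the treated N array of pool A 17 genes were lower, the fewest of any array left out.

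Against total RNA, untreated pool A held more of 10 of the 42 genes (23.81%) and less of 0. Of all genes tested 18.7% were higher and 29.9% lower, so the share of higher genes was near that of all genes. RPL13 had the largest difference, with 9.64 and 10.02 in total RNA and 11.64 and 11.91 in pool A (1.94 ± 0.25, 3.84-fold higher, adjusted p = 6.10e-05). RPL14 was higher by 1.70 ± 0.33 (adjusted p = 0.00106), RPL23A by 1.70 ± 0.20 (adjusted p = 2.74e-05), RPL37 by 1.42 ± 0.23 (adjusted p = 0.000341) and RPL28 by 1.34 ± 0.24 (adjusted p = 0.000543). RPL34, RPL7, RPL22, RPL13A and RPL5 were higher by between 0.67 and 1.04. At 4 h the same 10 genes and RPL7A were higher and 0 lower (18.7% and 27.2% of all genes), with RPL14 at 2.42 ± 0.33 (adjusted p = 0.000106) and RPL13 at 2.34 ± 0.25 (adjusted p = 1.92e-05). The median of the 42 genes was 0.13 at 0 h and 0.19 at 4 h, against -0.19 and -0.16 over all genes. Without the 4 untreated X arrays 5 genes remained at 0 h, and median scaling, which put the median of all genes at -0.87, left RPL22 (0.31), RPL28 (0.42), RPL34 (0.52), RPL37 (0.41) and RPL7 (0.50) short of the threshold, with 7 higher and 2 lower in all.

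Pool C lay below total RNA in 4 of the 42 genes at 0 h (9.524%) and above it in 0. Of all genes tested 15.2% were lower and 14.1% higher, so the family was not called lower more often than all genes. RPL39 was lower by 0.96 ± 0.20 (adjusted p = 0.00366) and RPL23A by 0.82 ± 0.20 (adjusted p = 0.00818), with RPL30 (-0.75, adjusted p = 0.0319) and RPL7 (-0.60, adjusted p = 0.0497) nearer the threshold. At 4 h 8 genes were lower (19.05%) and 0 higher, near the 15.8% lower of all genes (14.1% higher). They were led by RPL21, which was at 14.02 and 14.02 in total RNA and at 12.62 and 12.53 in pool C (-1.44 ± 0.25, adjusted p = 0.00125). RPL26, at the rim of the peptide tunnel, was at 14.12 and 14.04 against 12.87 and 12.61 (-1.34 ± 0.20, adjusted p = 0.000414). The other 6 were RPL39, RPL36, RPL22, RPL34, RPL23A and RPL30. The 0 h count fell to 1 without the untreated X array of pool C or of total RNA and to 2 without the untreated N array of total RNA, and it was 1 gene, higher and not lower, without the 4 untreated X arrays.

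In untreated cells 2 of the 42 genes were higher and 5 lower in pool B than in pool A (4.762% and 11.9%). Of all genes tested 14.2% were higher and 10.7% lower, the latter near the share of the family. RPL29, a basic protein also known as a heparin-binding protein, was at 10.40 and 10.17 in pool A, 11.77 and 11.33 in pool B, 11.04 and 10.28 in pool C and 10.96 and 10.44 in total RNA. Both pool B arrays were above all other untreated arrays, and RPL29 was higher than in pool A by 1.27 ± 0.32 (adjusted p = 0.0103) and than in total RNA by 0.85 ± 0.32 (adjusted p = 0.0424). Pool C was lower than pool B by 0.89 ± 0.32 (adjusted p = 0.0342). RPL36A, encoded on the X chromosome, was at 11.20 and 11.12 in pool B. It was at 10.36 and 9.63 in pool A, 10.08 and 9.21 in pool C and 10.63 and 10.165 in total RNA. It was higher in pool B than in pool A by 1.16 ± 0.36 (adjusted p = 0.0313), and lower in pool C than in pool B by 1.51 ± 0.36 (adjusted p = 0.00414). Against total RNA the difference in pool B did not pass (0.76 ± 0.36, adjusted p = 0.104).

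The 5 genes lower in pool B than in pool A were RPL14 (-1.30 ± 0.33), RPL23A (-1.14 ± 0.20), RPL7 (-1.10 ± 0.21), RPL13 (-1.04 ± 0.25) and RPL5 (-0.88 ± 0.21), with adjusted p-values between 0.00109 and 0.0127. RPL5, which with RPL11 and the smallest ribosomal RNA forms a particle that is built into the subunit during its assembly, was at 13.13 and 13.44 in pool A, 12.15 and 12.65 in pool B, 13.04 and 13.18 in pool C and 12.50 and 12.73 in total RNA. Pools A and C overlapped, while both pool B arrays were below them, and RPL5 was higher in pool C than in pool B by 0.71 ± 0.21 (adjusted p = 0.014). These counts rest on few arrays: without the untreated X array of pool A, or without the N array of pool B, 2 genes were lower and 0 higher. RPL29 and RPL36A then had adjusted p-values of 0.0566 and 0.204 in the first case and 0.0763 and 0.111 in the second.

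Against pool B, untreated pool C was lower in 12 of the 42 genes and higher in 2 (18.9% and 25.6% of all genes tested). RPL34, RPL36A, RPL37 and RPL23A were lower by between 1.38 and 1.62, and the others lower were RPL30, RPL36, RPL39, RPL29, RPL22, RPL23, RPL28 and RPLP1. RPL5 and RPL6 were higher, the latter by 0.53 ± 0.18 (adjusted p = 0.0249). Without the untreated X array of pool C 7 genes were lower, and without the untreated N array of pool B 9 were, with 0 higher in both cases. Against total RNA, 18.2% of all genes tested were higher and 24.6% lower in pool B at 0 h. Of the 42 genes 6 were higher (14.29%, a smaller share) and 0 lower. The 6 were RPL34, RPL37, RPL13, RPL29, RPL28 and RPL23A, higher by between 0.56 and 0.98. At 4 h 5 were higher (11.9%) and 1 lower, against 18.5% and 25.7% of all genes. RPL36A was at 11.21 and 11.09 in pool B and 9.96 and 9.82 in total RNA (1.26 ± 0.36, adjusted p = 0.0123). RPL21 was lower in pool B by 0.65 ± 0.25 (adjusted p = 0.0489). Leaving out either array of untreated pool B or the N array of untreated total RNA left 3 genes at 0 h, leaving out the X array of untreated total RNA left 2, and leaving out all untreated X arrays left 0. At 4 h 1 gene was left without the N array of treated pool B or the X array of treated total RNA.

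Some of the genes were grouped by position in the ribosome, and most of the called genes, RPL37, RPL34, RPL13, RPL14 and RPL7 among them, belong to none of these groups. Levels in these groups are those of the brightest probe. Of the stalk, which recruits translation factors, RPLP1, RPLP2 and RPL12 were tested. RPLP2 stayed between 14.02 and 14.60 on all 16 arrays and RPLP1 between 13.77 and 14.57 by its brightest probe. RPL12 was the stalk gene lower in pool C than in pool A at 4 h. Of the particle with the smallest ribosomal RNA, RPL11 lay between 14.30 and 14.73 on all arrays with 0 calls, unlike its partner RPL5. Of the proteins that join late or face the small subunit, RPL24 lay between 14.13 and 14.47 and RPL41, the smallest ribosomal protein, between 14.20 and 14.66 by their brightest probes, which had 0 calls. Of the 9 genes of the exit tunnel and its rim, 4 were lower in pool C than in pool A at 0 h (RPL23A, RPL22, RPL39 and RPL26) and 6 at 4 h, when RPL4 and RPL31 were added, against 21.4% and 23% of all genes tested. The tunnel rim genes RPL17, RPL19 and RPL35 had 0 calls by their brightest probes, which lay between 14.01 and 14.47 on all arrays. The dimmest kept probe of RPL17 differed between pools C and A by -1.35 at 0 h and -1.46 at 4 h. RPL13A, which after release from the ribosome can silence inflammatory mRNAs in myeloid cells, was at 13.91 and 14.28 in untreated pool A and at 13.57 and 13.30 in pool C.

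The calls differed with the mean level of the probes. Of the 42 genes, 21 had a mean level of 14 or more over the 16 arrays, near the top of the scale, and 21 had a lower one. In pool C against pool A at 0 h the bright group had a median difference of 0.03 with 1 higher and 0 lower, and the dimmer group a median of -0.76 with 0 higher and 14 lower (66.7%). At 4 h the medians were -0.02 and -1.46, with 1 and 19 genes lower. Among all other genes the bright ones were also called less often, with 9 higher and 7 lower of 62, than those under 14, with 34.4% higher and 21.4% lower of 10059. The level of 14 was chosen after the values were seen, and these figures are a description. The mean includes the arrays of pools A and C, so that low values in pool C also move a gene toward the dimmer group. RPL39, RPL26, RPL30 and RPL13A were at 14.399, 14.175, 14.151 and 14.098 in untreated pool A. Their means over the 16 arrays were 13.94, 13.835, 13.583 and 13.741. The split is therefore partly set by the differences it describes. The part of a ceiling of the bead signal in the values of the bright genes was not tested.

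Several genes had further, dimmer probes, and these often differed from the brightest one. Over the 19 genes with more than 1 kept probe, the median of pool C against pool A at 0 h was -0.15 by the brightest probe and -1.01 by the dimmest, and the dimmest was the more negative in 12. The gene RPL41 lay at 14.35 and 14.40 in untreated pool A and at 14.42 and 14.38 in pool C by its bright probe, a difference of 0.03 ± 0.18. By its dim probe it lay at 10.79 and 10.37 in pool A and at 6.87 and 6.22 in pool C, a difference of -4.04 ± 0.25 (adjusted p = 7.44e-08 in the fit of all probes). RPL8, near the peptidyl transferase centre, was at 14.06 and 14.17 in pool A and 14.33 and 14.20 in pool C by the bright probe (0.14 ± 0.18). The dim probe of RPL8 was at 11.84 and 11.54 in pool A and at 8.72 and 8.14 in pool C (-3.26 ± 0.32, adjusted p = 2.91e-06).

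The dimmest probe of RPLP1 was at 13.14 and 13.36 in untreated pool A, 10.60 and 10.50 in pool B, 9.61 and 8.40 in pool C and 10.34 and 10.78 in total RNA. It differed between pools C and A by -4.25 ± 0.34 (adjusted p = 6.47e-07), and the third probe of RPLP1 by -1.10 ± 0.21 (adjusted p = 0.000709). RPL36 was at 11.51 and 10.62 in pool A and 8.44 and 7.87 in pool C by its dim probe (-2.91 ± 0.37, adjusted p = 2.28e-05). The dim probes of RPL37A and RPL32 were not above background in pool C on either array and were at least 6.41-fold and at least 8.68-fold lower there (adjusted p = 7.32e-07 and 6.53e-07). RPL6 went the other way, with a dim probe at 6.73 and 7.31 in pool A and 9.45 and 9.45 in pool C (2.43 ± 0.25, adjusted p = 4.20e-06), where its bright probe lay at 14.24 and 14.56 and at 14.38 and 14.53. The dimmer probes of RPL13 (-0.92 ± 0.30), RPL14 (-0.48 ± 0.33) and RPL37 (-0.945) were closer to 0 than the brighter ones. In the fit of 13289 probes, 28 of the 67 kept probes of the family were lower in pool C than in pool A at 0 h and 2 higher (20.1% and 34.4% of all probes), and 36 and 1 at 4 h (21.1% and 34.4%). Which transcripts each probe matches was not analysed here, and the probes of a gene may read different transcripts.

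**Figure D3:**
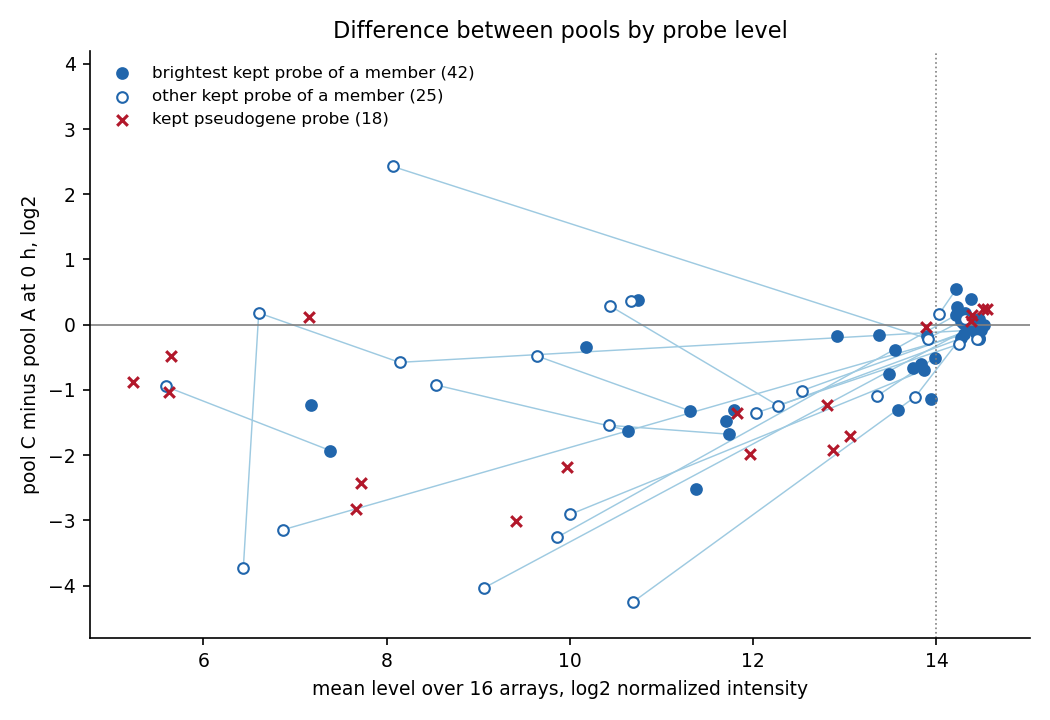
Difference between untreated pools C and A (log2) against the mean level of the probe over 16 arrays (log2 normalized intensity), for the 42 brightest kept probes of the genes (filled), their 25 other kept probes (open, joined to the same gene by lines) and 18 kept pseudogene probes (crosses). The dotted line marks a level of 14. The probes above it lie near 0, while those under it spread from -4.25 to 2.43.

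Pseudogenes of the family are processed copies whose sequence can be close to that of the parent, so that their probes may also bind the parent mRNA. Of the 18 kept pseudogene probes 11 were lower in pool C than in pool A at 0 h and 0 higher, with a median of -1.13, against 20.1% lower and 34.4% higher and a median of 0.29 over all probes. At 4 h 10 were lower and 0 higher. The probes of RPL23A copies ranged widely. The brighter probe of RPL23AP7 differed by -3.00 ± 0.24 (adjusted p = 6.07e-07), that of RPL23AP32 by -2.83 ± 0.34 (adjusted p = 1.54e-05), and RPL23AP64 and RPL23AP87 by -1.99 and -1.92, but RPL23AP53 was at 0.11. RPL13P5 had a probe at -2.18 ± 0.30 (adjusted p = 4.34e-05), and both RPL21P28 probes were lower, by 1.23 and 1.36. RPL13AP20, RPL13AP3 and RPL13AP5 had mean levels of 14.37 to 14.55 and differences between 0.06 and 0.24, none called.

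Paralogs of family members were also measured. RPL39L, a copy of RPL39 best known from testis, was at 11.017 and 10.998 in untreated pool A, 12.27 and 11.92 in pool B, 10.64 and 9.63 in pool C and 10.83 and 10.59 in total RNA by its brighter probe. Pool B was above pool A by 1.09 ± 0.29 (adjusted p = 0.0158) and pool C below pool B by 1.96 (adjusted p = 0.000153). RPL26L1 was higher in pool B than in pool A by 0.90 ± 0.23 (adjusted p = 0.0125). RPL36AL, the copy of RPL36A, was lower in pool C than in pool B by 0.87 (adjusted p = 0.00438) and did not pass between pools B and A (0.58, adjusted p = 0.0616). RPL7L1 and RPL10L were also kept, the latter detected on only 2 arrays, both of untreated pool A. With dexamethasone 1 of the 5 tested paralogs was lower in pool A (limma, adjusted p = 0.0402), where 0.876% of all genes passed. The 5 include RPL10L, which passed the detection filter only through untreated pool A, so that its fall there was set by the filter. The 1 call is therefore not shown to be a response to the drug. In total RNA, pool B and pool C 0 of the 5 passed.

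Dexamethasone moved 0 of the 42 genes past the threshold in total RNA, pool A, pool B or pool C (limma; 0.108%, 0.876%, 0.0295% and 0.0689% of all genes passed). In other settings 4 genes passed in pool A (the deposited value table with a replicate block) and 1 in pool C (no background correction). At an unadjusted p under 0.05 there were 0, 1, 0 and 2 of the 42, where 4.56%, 13%, 6.7% and 5.93% of all genes were. The values were balanced in total RNA, with 21 positive and 21 negative and a median of 0.00. In pool A 29 were positive and 13 negative (median 0.10), where 54.67% of all genes were positive (median 0.04). In pool B 20 were positive and 22 negative (median -0.01), where 48.82% of all genes were positive. In pool C 9 were positive and 33 negative (median -0.11), where 51.3% of all genes were positive (median 0.01). With median scaling the median of the 42 genes was 0.005 in pool A, below the 0.221 over all genes, and -0.038 in pool C, against 0.051. RPL26 was at 13.77 and 13.39 in untreated and 12.87 and 12.61 in treated pool C, which did not overlap (-0.84 ± 0.20, adjusted p = 0.23). RPL21 was at 13.74 and 13.04, then at 12.62 and 12.53 (-0.82 ± 0.25, adjusted p = 0.462). In pool A, RPL14 was at 11.90 and 12.76 before and 13.08 and 12.89 after treatment (0.66 ± 0.33, adjusted p = 0.446), and RPL28 differed by 0.55 ± 0.24 (adjusted p = 0.357).

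**Figure D4:**
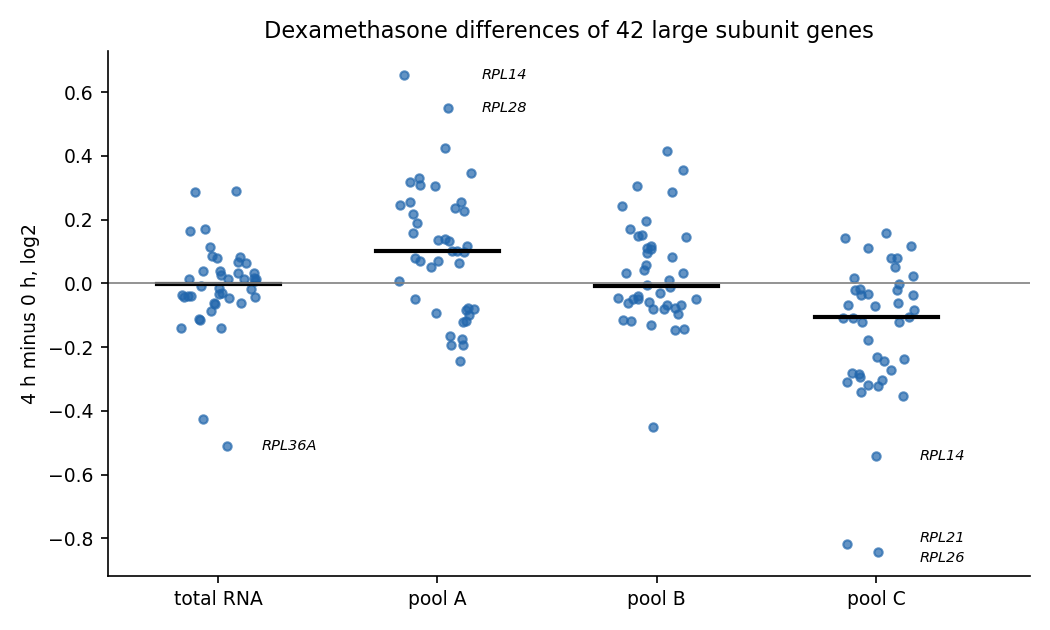
Difference between 4 h and 0 h of dexamethasone (log2) for each of the 42 genes in pools A, B and C and total RNA; bars are medians, points are spread sideways at random, and genes beyond 0.5 are named. The medians were 0.00 in total RNA, 0.10 in pool A, -0.01 in pool B and -0.11 in pool C, and 0 genes passed the adjusted threshold in any of the 4 kinds of RNA.

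The other extreme values by the naming rule did not pass either. In total RNA they were RPL36A (-0.51), RPL7 (-0.43), RPL13 (-0.14), RPL13A (0.17), RPL22 (0.29) and RPL28 (0.29). In pool A they were RPL11 (-0.24), RPL9 (-0.19), RPL36A (-0.19) and RPL3 (0.42). In pool B they were RPL37 (-0.45), RPL18 (-0.15), RPL38 (-0.14), RPL28 (0.30), RPL5 (0.36) and RPL14 (0.42), and in pool C RPL14 (-0.54), RPLP2 (0.12), RPL3 (0.14) and RPL37A (0.16). The differences between the responses of the pools and of total RNA, and between those of pools C and A, also gave 0 calls among the 42 and among all genes (0%). Between pools C and A 35 of the 42 differences in response were negative, where 45.74% of all genes were positive. The median was -0.19, against -0.04 over all genes, and -0.02 against -0.19 with median scaling. The most negative were RPL14 (-1.20 ± 0.47, adjusted p = 0.822), RPL21 (-1.12 ± 0.36, adjusted p = 0.554) and RPL26 (-0.94 ± 0.28, adjusted p = 0.519). At the other end were RPL11 (0.32), RPL37A (0.28) and RPLP2 (0.17). At an unadjusted p under 0.05 there were 3 of the 42 in this contrast (5.76% of all genes), 2 for pool C against total RNA (1.81%), and 0 for pools A and B against total RNA (4.03% and 1.69%).

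Within the family, the 26 tested genes with a TOP start had a median of -0.21 in pool C against pool A at 0 h, with 0 higher and 9 lower. The 9 without one had a median of 0.02, with 1 higher and 0 lower. Over all genes tested the median was 0.26, with 34.2% higher and 21.4% lower. Among the 9, RPL17, RPL19, RPL4, RPL10A and RPL9 still had pyrimidine runs of 10 to 16 bases touching the 20 bases around a start. In RPL32, RPL3, RPL6 and RPL27 these runs were 2 to 6 bases long. Absence of a TOP start here means only that no annotated first base opened such a run. The 7 without a matched window, RPL23A among them, had a median of -1.30, with 0 higher and 5 lower. Of the 26, 12 had a mean level of 14 or more, and of the 9, 8 had, so that the start and the brightness of the probe cannot be told apart here.

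The rest of the ribosome and its assembly genes gave a comparison. Of 26 tested small subunit genes 8 were lower and 1 higher in pool C than in pool A at 0 h (median -0.10), where 21.4% of all genes were lower and 34.2% higher (median 0.26). RPS21 was lower by 1.86 ± 0.35 (adjusted p = 0.00058) and RPS2 by 1.47 ± 0.23 (adjusted p = 0.000133), while RPS7 was higher by 2.30 ± 0.27 (adjusted p = 1.15e-05), from 9.97 and 10.40 in pool A to 12.70 and 12.27 in pool C. Of 19 other genes known for TOP mRNAs, 6 were lower and 3 higher. PABPC1, the poly(A) binding protein, was lower by 2.21 ± 0.26 (adjusted p = 1.33e-05) and the initiation factor EIF4B by 1.37 ± 0.23 (adjusted p = 0.000254). HNRNPA1 was higher by 2.10 ± 0.34 (adjusted p = 0.000176) and EIF3K by 1.68 ± 0.24 (adjusted p = 5.01e-05). BTF3, part of the nascent polypeptide-associated complex, was higher by 1.02 ± 0.24 (adjusted p = 0.00261). Of 27 genes that act in assembly of the large subunit, 14 were higher and 1 lower, with a median of 0.65. MRTO4, which holds the place of the stalk protein in the precursor, was at 8.91 and 8.76 in pool A and at 10.67 and 10.55 in pool C (1.77 ± 0.31, adjusted p = 0.000301), and RRP1B was higher by 1.68 ± 0.28 (adjusted p = 0.000218). The 1 lower assembly gene was NLE1 (-1.47 ± 0.29, adjusted p = 0.000792). No test compared these lists with each other.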

How the data were processed

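RNA from 16 MM1.S cultures or fractions was measured on Illumina bead arrays. The authors deposited, per the file headers, one table of bead intensity per probe with a detection p-value, and a value table on a log2-like scale whose normalization, scale and centring no source used here states. In that table the 4 total RNA columns share 1 maximum and the pool columns do not, so the columns may have been normalized apart. The intensity columns carry a group and a prefix (N or X), but not which sample of the group they belong to, and were used as unnumbered replicates.

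Intensities were background corrected with limma's nec (normexp from the detection p-values, offset 16), put on the log2 scale and quantile normalized (R 4.3.3, limma 3.58.1). Probes with a detection p under 0.01 on at least 2 arrays were kept, and the brightest kept probe stood for a gene. Means of the 8 groups were fitted with lmFit, 18 contrasts were tested with eBayes, and p-values were adjusted by Benjamini-Hochberg over all 10163 genes, with a threshold of 0.05. Single probes were tested in a second fit of the 13289 kept probes with 1 gene symbol. A probe not above background on both arrays of a group has only a bound there, so its fold change is a lower limit, taken against the weakest signal above background on each array. The design does not state depth, and the number of arrays limits the precision. The fits were also run on simulated data with independent noise on each array and few changed genes. In the real data arrays of the same prefix deviated together and many genes differed between pools. The simulation therefore does not show how many of the reported calls are false. Gene symbols come from the platform annotation, which lists 30121 probes, 30113 of them with 1 symbol.

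The genes, the comparison lists and the naming rule were chosen with earlier results of these data known. The rule named genes past the threshold in a comparison whose arrays did not overlap, in order of size, and up to 3 in each direction in the dexamethasone comparisons, where none passed. It also named genes by role: those of the stalk, of the particle with the smallest ribosomal RNA, of the late-joining proteins and of the exit tunnel, and RPL13A. Other values were named after they had been seen. Arrays of the same prefix deviated together, with a correlation over 0.1 in 27 of 28 pairs of groups (median 0.25), as did samples of the same number in the value table (27 of 28, median 0.31). The rule used asks for all pairs, and the lowest were -0.08 and -0.06, so the fit reported has no block and blocked fits are given as alternatives. Alternatives were no background correction, median scaling, the value table, other detection filters, the mean, the dimmest or every kept probe, only the arrays compared, replicate blocks and each array left out. Sequences come from RefSeq tables. The probes' own sequences were not used here.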

Additional observations from a re-analysis of the deposited data

How the results depend on the processing

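Counts are of the 42 genes (probes in the setting of every kept probe) as higher and lower. Of 103 named differences past the threshold, 103 stayed past it in the same direction without background correction, 64 with median scaling, 83 with the deposited value table, 94 without a detection filter, 102 of 102 with detection on all 16 arrays, 100 with the mean of kept probes, 83 with only the arrays compared, 95 of 102 with the dimmest probe detected on all 16 arrays and 69 after the 4 untreated X arrays were dropped. That last setting and those of the dimmest and of every kept probe were chosen after the data were seen.

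In untreated pool A against total RNA, 10 calls became 22 (21 and 1) with the value table, 17 with the mean of probes, 19 (18 and 1) with the dimmest probe, 25 (24 and 1) for every probe and 5 without the X arrays; the 11 at 4 h became 26, 17, 21 (20 and 1) and 25 (24 and 1). In pool B against total RNA, 6 became 3 with median scaling, 11 (10 and 1) with the dimmest probe, 14 (13 and 1) for every probe and 0 without the X arrays; the 6 at 4 h became 3 with median scaling, 2 with the value table, 11 with the mean of probes, 12 with the dimmest and 14 for every probe. In pool C against total RNA, 4 became 10 (1 and 9) without background correction, 2 with the value table, 9 with the mean of probes, 2 with only the arrays compared, 9 with the dimmest, 11 for every probe and 1 without the X arrays; the 8 at 4 h became 4 with median scaling, 5 with the value table, 13 with the dimmest and 17 for every probe. In pool B against pool A, 7 became 11 (2 and 9) without background correction, 4 with median scaling, 14 (2 and 12) with the value table, 1 with only the arrays compared, 15 (4 and 11) for every probe and 1 without the X arrays. In pool C against pool A, 15 became 26 (1 and 25) with the value table, 23 (1 and 22) with the mean of probes, 30 (2 and 28) for every probe and 8 without the X arrays, and the 20 at 4 h became 33 with the value table and 37 (1 and 36) for every probe. In pool C against pool B, 14 became 9 with only the arrays compared, 25 (3 and 22) for every probe and 3 without the X arrays. In pool C, dexamethasone gave 1 lower gene without background correction.

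The column prefix as a replicate block kept all 103 named calls, with 16 genes (1 and 15) in untreated pool C against pool A. The value table with a replicate block by its numbers, which missed the rule for pairing in 1 of 28 pairs of groups, gave 4 calls for dexamethasone in pool A, 24 (22 and 2) in untreated pool A against total RNA, 28 at 4 h, 14 in pool B against pool A, 31 (1 and 30) in untreated pool C against pool A and 34 at 4 h.

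With 1 array left out, counts ranged from 8 to 11 for pool A against total RNA at both times, from 2 to 10 for pool B against pool A, from 2 to 7 and from 1 to 7 for pool B against total RNA at 0 h and 4 h, from 1 to 6 and from 6 to 8 for pool C against total RNA, from 9 to 16 and from 17 to 20 for pool C against pool A, and from 7 to 14 for pool C against pool B. All dexamethasone counts stayed at 0.

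Reversals were found mainly among values that had not passed. For dexamethasone they were RPL13 in total RNA (0.051 without the untreated X arrays, and between -0.334 and 0.051 with 1 array left out), RPL9 in pool A (0.045 with the dimmest probe), RPL36A in pool A (0.075 with median scaling, 0.158 with the value table, and between -0.558 and 0.174 with 1 array left out), RPL3 in pool A (-0.062 with the dimmest probe), RPL38 in pool B (0.11 with the dimmest) and RPL37A with the mean of probes (-0.037 in pool C and -0.04 for pool C against pool A). In untreated pool C against pool A, RPL41 turned to -0.24, -0.37, -2.01 and -4.04, and RPL8 to -0.19, -0.34, -1.56 and -3.26, with median scaling, the value table, the mean of probes and the dimmest probe. The 1 called value that reversed was RPL13 in pool B against pool A (0.78 with the dimmest probe, adjusted p = 0.0563). The cause was not tested.

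Median scaling changed the split of the calls among all genes. The share of calls that were higher went from 38.4% to 8.6% for untreated pool A against total RNA, from 42.5% to 22.8% for pool B, from 48% to 70.3% for pool C, from 57.1% to 87.3% for pool B against pool A, from 57.5% to 83.7% for pool C against pool B and from 59.1% to 83.6% for pool C against pool A at 4 h. The median of the 42 genes kept its sign in pool C against pool A (-0.31 and -0.47 with median scaling and the value table). The number of arrays, 2 a group, limits the precision.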
